A study of Rattus norvegicus with 24 samples.

Results

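The genes described are 10 transcription factors of the lung lineage: Nkx2-1, Foxa1, Foxa2, Foxp1, Foxp2, Gata6, Foxf1, Tbx2, Tbx4 and Tbx5. They were chosen by symbol, as 10 of the 30667 genes in the table, and their values were followed across all 24 samples. The samples are lung tissue from rats of a lung cancer model induced with smoky coal, and each was profiled by mRNA sequencing. The titles combine a letter (A, B, C or G) with a number from 1 to 6, so that each letter holds 6 samples and each number holds 4, and a sample is called here by both (A2 is letter A, number 2). All 24 samples carry the same smoky coal label. What the letters and the numbers stand for, and the strain, age, dose and time, are not given in the sources used here, and no letter is named as the control. Nothing in the labels says that the samples came from separate animals, so every p-value measures only the spread between these samples, which may be technical.

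Lung epithelium arises from foregut endoderm and is marked by NKX2-1, which works with the pioneer factors FOXA1 and FOXA2 and with the zinc finger factor GATA6 to switch on surfactant and secretory genes. FOXP1 and FOXP2 are forkhead repressors of the airway and alveolar epithelium. Around the epithelium, the T-box factors TBX2, TBX4 and TBX5 and the forkhead factor FOXF1, a target of Hedgehog signalling, pattern the mesenchyme, and FOXF1 is also needed in the pulmonary capillary endothelium.

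Values are the read counts per gene as normalised by the authors; their sums ran from 61717516 to 66007148 per sample, the sequencing depth behind them is unknown, and they are not scaled to gene length, so levels are compared between samples and never between genes. The submitters' processing notes name a mouse genome build for these rat samples, and 37.6% of the table's gene names have the form of mouse gene models. All 10 factors matched a rat RefSeq symbol, as did 52.6% of all gene names. A match of symbols does not show which genome the reads were aligned to. Whether reads were counted by strand is not given, so reads from an antisense transcript over a factor could not be told from its own. Lung markers were high in every sample: Sftpc, the surfactant gene of alveolar type 2 cells, ranged from 603887 to 932776, and Ager, a marker of alveolar type 1 cells, from 112843 to 194247. Sample A2 stood apart by acute inflammation and proliferation genes (summed neutrophil and inflammation markers of 47595, against at most 27139 elsewhere), and A4 and B4 by skeletal muscle genes (summed markers of up to 93614 in number 4), with squamous keratin genes in A4. Calls of a factor among the numbers that changed without A2, or without A4 and B4, are given both ways.

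Every factor was well above the low end of the table, with a mean of at least 1000 normalised counts. The highest sample exceeded the lowest by 1.48 times for Foxa2, the narrowest range, and by 3.05 times for Foxf1, the widest. Sample A2 was the lowest of the 24 for 5 factors (Foxp2, Foxf1, Tbx2, Tbx4 and Tbx5), and G6 the highest for Foxf1 and Tbx2. The plot of the factors by number shows every value.

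**Figure D1:**
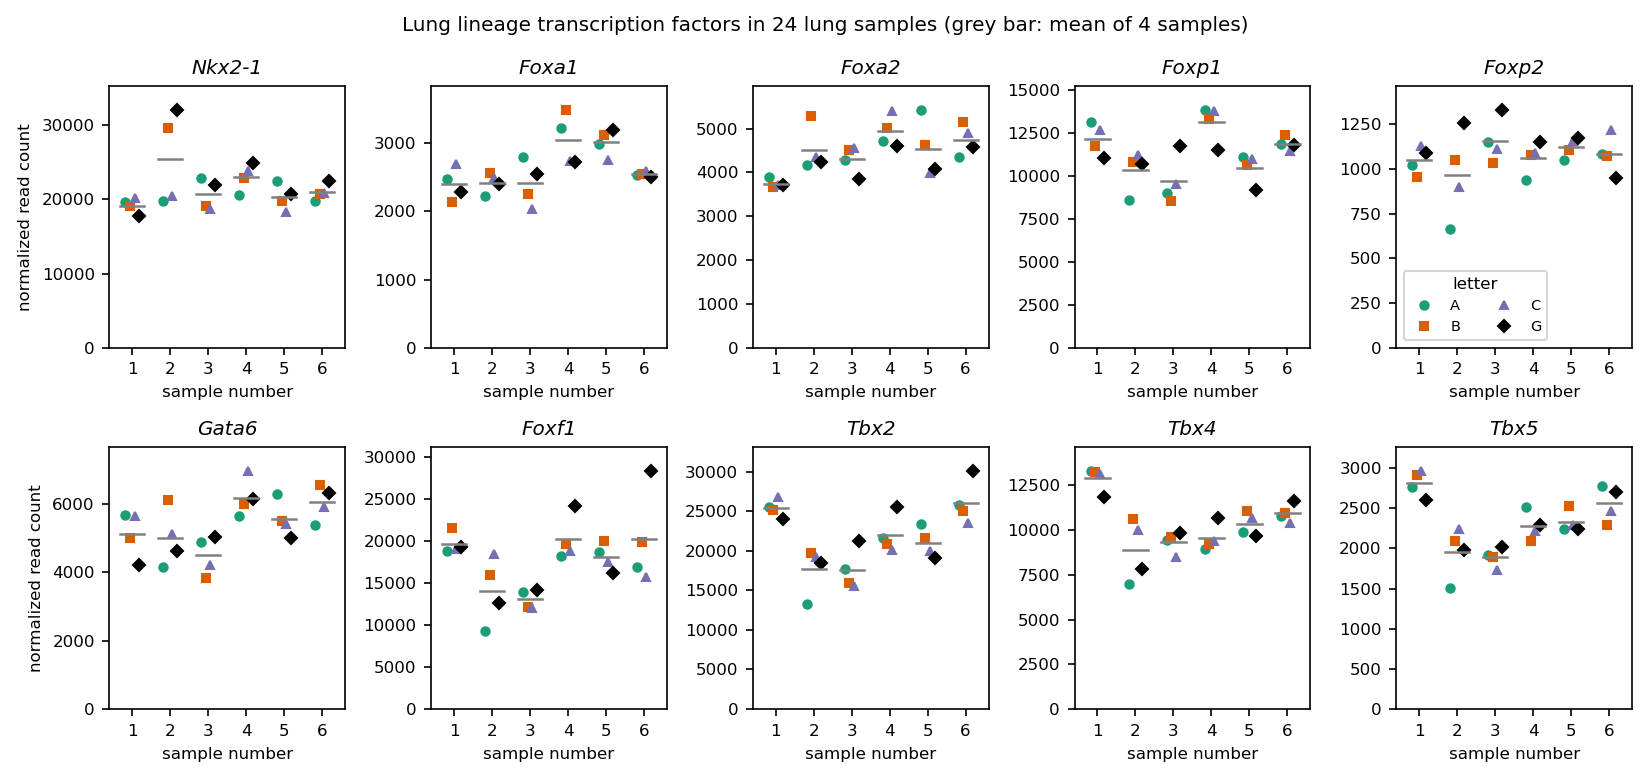
Normalised counts of the 10 factors (vertical axes) by sample number (horizontal axes), with 1 point per sample coloured by letter and the mean of the 4 samples of each number. Tbx4 in number 1, at 11857 to 13273, lay above all other samples.

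The first comparison asked whether the factors differed among the 4 letters. None did: 0 of 10 factors passed an F test over the letters (limma on log2(value + 1), Benjamini-Hochberg adjusted p below 0.05 over all 30667 genes), and 0 of 10 had an unadjusted p below 0.05. The background was as sparse, with 0.00652% of all genes called, which is 2 genes, and 1199 genes at an unadjusted p below 0.05. No pairwise letter difference of a factor passed either, in 60 tests. Among all genes, 0.00% were called between any 2 of the letters A, B and C. The share was 0.00652% for G against A, 0.00326% for G against B and 0.00652% for G against C, and of the 60 tests of factors 1 had an unadjusted p below 0.05 (Foxp2, G against A). In a fit that blocked on the number again no factor passed, against 0.0391% of all genes over the letters, 1.27% for G against A and 0.0359% for G against C.

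Foxp2, a forkhead repressor of airway and alveolar epithelium, came nearest. Its 6 samples of letter A had a lowest value of 662 (A2, with the next at 937 in A4), a median of 1037 and a highest of 1148. In letter B they ran from 952 through a median of 1062 to 1104, in letter C from 898 through 1120.4 to 1218, and in letter G from 951 through 1159.9 to 1331. The letters overlapped throughout. Letter G exceeded letter A by 0.25 on the log2 scale (SE 0.11, limma, unadjusted p = 0.0263, adjusted p = 0.551). In the fit that blocked on the number, the SE was 0.097 (limma adjusted p = 0.221).

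Foxf1 had the next largest difference, 0.24 (SE 0.19, limma adjusted p = 0.781) between the same letters, with 15976 ± 3763 in A and 19116 ± 6070.5 in G (mean ± SD, n = 6). With the number as block, its SE was 0.13 (limma adjusted p = 0.401). The letter A mean included A2, the lowest Foxf1 value of all at 9269, and the letter G mean included G6, the highest at 28290.3. Nkx2-1 had its lowest letter mean in C, 20376 ± 1994, and its highest in G, 23329.6 ± 4890.4. Tbx5 differed least, with letter means from 2286 ± 504 (A) to 2319 ± 397 (C). In all 30 pairs of neighbouring letter means over the 10 factors the ranges overlapped. The share of such pairs over all genes was not computed.

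The second comparison asked whether the factors differed among the 6 numbers, with the letter kept in the model. Here 8 of 10 factors passed the F test, against a background of 31.5% of all genes, and of 58.3% of the 9352 genes whose mean was 1000 or more, the range in which all 10 factors lie. Nkx2-1 (limma adjusted p = 0.0953) and Foxp2 (limma adjusted p = 0.391) did not pass. The others were Tbx5 (adjusted p = 0.000869), Tbx2 (0.000883), Tbx4 (0.00138), Foxf1 (0.00778), Foxp1 (0.00855), Foxa1 (0.00909), Foxa2 (0.0112) and Gata6 (0.0255). Calls for 6 of these 8 held in each of 24 fits that left out a sample. Foxa2 lost its call without B1 (adjusted p = 0.0553), and Gata6 lost it without B3, C3 or C4 (adjusted p up to 0.0698). Foxp1 was at 0.0523 with A4 and B4 both left out, and Nkx2-1 passed without A2 (0.0157) or without C2.

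Letter and number together describe each gene in a balanced layout, so the variation of its log2 values splits into shares. For the 10 factors the median share was 59.2% for the number, 4.77% for the letter and 35.7% for the remainder. Over the genes of mean 1000 or more these medians were 53.7%, 8.92% and 34.4%, and the degrees of freedom alone would give 21.7% to the number and 13.04% to the letter. Tbx5 had the largest number share, 74.2%, above that of 88.9% of genes of like level. Tbx2 followed with 69.9% and Tbx4 with 68.3%, whereas Foxp2 had 22.7% and Nkx2-1 39.6%. The 3 T-box factors thus held the highest number shares of the 10, and Foxf1 had 56.8%.

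**Figure D2:**
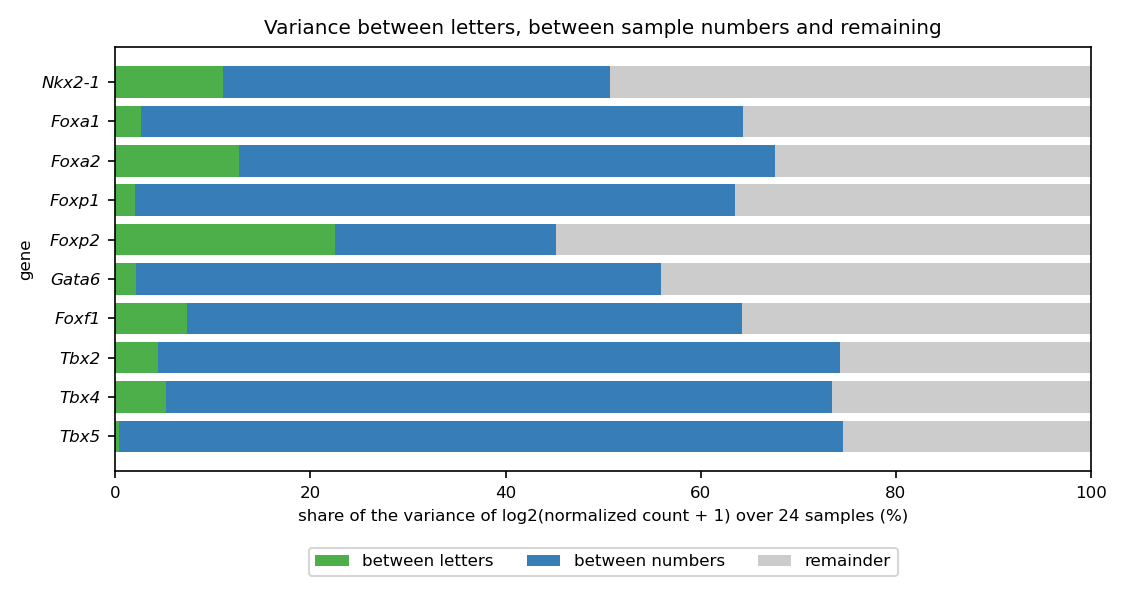
Share of the variation in log2(value + 1) held by letter, number and remainder (percent, horizontal axis) for each factor (vertical axis), as stacked bars. The number share ran from 22.7% for Foxp2 to 74.2% for Tbx5.

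Each number was then set against the mean of the other 5. Of the 60 tests, 14 passed, in 5 of the 6 numbers, and 11 of the 14 concerned Foxf1, Tbx2, Tbx4 or Tbx5. In number 1, 3 factors were higher (Tbx2, Tbx4 and Tbx5) and 1 lower (Foxa2). The background for number 1 was 5.62% of all genes called higher and 6.25% lower, and among genes of mean 1000 or more it was 12.6% and 8.71%.

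**Figure D3:**
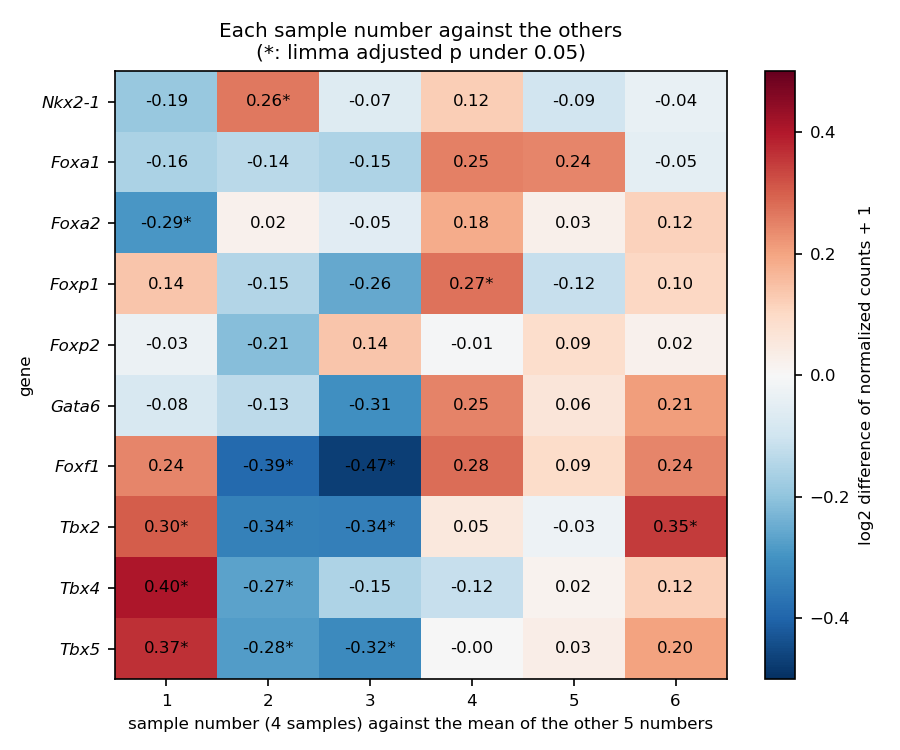
Log2 difference of each number from the mean of the other 5 numbers, for each factor. Differences that passed the adjusted test are marked. The called differences ran from -0.47 (Foxf1 in number 3) to 0.40 (Tbx4 in number 1).

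The promoters of the number 1 factors that RefSeq's table holds are shown because these genes moved in opposite directions there. Each is the 250 bases before the start site that the promoter table uses for the gene, in build GRCr8, written 5′ to 3′ on the gene's strand, with CpG dinucleotides in capitals. Foxa2 is at chr3:155927509-155927758 (minus strand), Tbx4 at chr10:71228306-71228555 (plus strand) and Tbx5 at chr12:42395360-42395609 (minus strand).
Foxa2: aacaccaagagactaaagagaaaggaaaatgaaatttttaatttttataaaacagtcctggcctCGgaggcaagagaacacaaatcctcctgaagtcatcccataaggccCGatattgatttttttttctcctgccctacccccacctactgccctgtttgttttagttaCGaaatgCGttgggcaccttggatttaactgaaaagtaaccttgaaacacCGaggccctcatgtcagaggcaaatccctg
Tbx4: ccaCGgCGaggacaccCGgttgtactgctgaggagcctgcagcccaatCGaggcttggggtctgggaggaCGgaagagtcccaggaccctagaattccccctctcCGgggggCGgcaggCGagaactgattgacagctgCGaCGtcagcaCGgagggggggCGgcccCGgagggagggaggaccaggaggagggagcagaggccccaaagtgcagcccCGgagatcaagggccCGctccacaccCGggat
Tbx5: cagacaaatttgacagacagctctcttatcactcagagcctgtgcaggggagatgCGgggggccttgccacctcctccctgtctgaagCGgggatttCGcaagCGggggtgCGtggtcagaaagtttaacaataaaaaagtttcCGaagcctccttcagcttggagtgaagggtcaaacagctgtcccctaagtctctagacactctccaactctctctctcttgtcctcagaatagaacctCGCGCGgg
Foxa2 had 5 CpG and a GC content of 42.8%, Tbx4 had 16 CpG and 68.4%, and Tbx5 had 9 CpG and 53.2%. At least as many CpG stood in 55.3%, 23.8% and 38.5% of 33469 rat promoters of this length, respectively. The windows of Tbx4 and Tbx5 lie inside the annotated span of their genes, and that of Foxa2 lies outside. On both strands, none of the 3 windows held the T-box letters GGTGTGA, the forkhead letters TNTTTAC, the NKX2 letters CAAGTG or the GATA letters AGATAA, which occur in 3.22%, 11.6%, 11.7% and 10.3% of all these promoters. Of the 6 factors in the promoter table, Foxp1 alone held a match, 1 forkhead and 1 NKX2.

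Tbx4, the T-box factor of lung and trachea mesenchyme, was the clearest case. Its number 1 samples had 13273 (A1), 13260.2 (B1), 13111 (C1) and 11857 (G1) normalised counts. The other 20 samples ran from 7001 in A2 to 11639.7 in G6, so number 1 lay wholly above them. No other factor had a number whose 4 samples all lay above the rest, and 3.44% of genes of mean 1000 or more did so in number 1 (1.35% of all genes). The difference was 0.40 (SE 0.073, limma adjusted p = 0.00103).

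Tbx5, which is needed for lung bud outgrowth and also works in the heart, had 2761, 2918, 2959.5 and 2606 in A1, B1, C1 and G1. The other samples ran from 1501 in A2 to 2779 in A6, so number 1 overlapped only number 6. The difference was 0.37 (SE 0.077, limma adjusted p = 0.00331). Tbx2, a T-box repressor that keeps lung mesenchyme growing, had 25524, 25153, 26761 and 23972, overlapping numbers 4 and 6, and a difference of 0.30 (SE 0.087, limma adjusted p = 0.0248). The call for Tbx2 was lost without A1, without B1 or without C1 (adjusted p up to 0.142), whereas those for Tbx4 (up to 0.0146) and Tbx5 (up to 0.0260) held in all 24 fits. Tbx2 and Tbx4 are neighbouring genes on rat chromosome 10 in RefSeq.

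Foxa2, the pioneer factor of foregut epithelium, moved the other way in number 1. Its samples had 3892 (A1), 3670.1 (B1), 3701 (C1) and 3704 (G1), a spread of ± 101 (SD, n = 4) around 3742. The other 20 ran from 3841 in G3 to 5428 in A5, so that A1 alone overlapped them. The difference was -0.29 (SE 0.064, limma adjusted p = 0.00432), and it held in all 24 fits (adjusted p up to 0.0446). Foxa1, its close paralog, was 2397 ± 245 (SD, n = 4) in number 1, with a difference of -0.16 that did not pass (limma adjusted p = 0.194).

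Markers of other compartments moved in the same samples. In number 1, 7 of 14 fibroblast markers were higher and 1 lower, 7 of 9 smooth muscle markers were higher, and 5 of 14 capillary markers were higher, and so were 3 of 10 proliferation markers. Lower were 2 of 10 alveolar type 2, 5 of 7 red cell, 4 of 12 lymphocyte and 2 of 10 macrophage markers. The summed fibroblast markers ran from 542103 to 661874 in number 1 and from 277412 to 537949 in the other samples, without overlap. No fibroblast, smooth muscle or capillary marker was at 0 in any sample. In bulk tissue, fewer cells of a type and less RNA per cell cannot be told apart. The part of these markers in the differences of Tbx2, Tbx4, Tbx5 and Foxa2 was not tested.

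Number 2 had 4 factors lower (Foxf1, Tbx2, Tbx4 and Tbx5) and 1 higher (Nkx2-1). Its background was 11.5% of all genes higher and 10.3% lower, and 18.3% and 23.0% among genes of mean 1000 or more. All 4 lower calls were lost without A2, and those of Foxf1 and Tbx4 also without G2. A fit with sample quality weights, which kept every sample, also ended all 4 (limma adjusted p from 0.0773 to 0.228). Foxf1 had 9269 in A2 against 16011, 18449 and 12624 in B2, C2 and G2, so that C2 lay among the numbers with high values. Its difference was -0.39 (SE 0.13, limma adjusted p = 0.0294) with A2 and -0.22 (adjusted p = 0.309) without it, or -0.30 (adjusted p = 0.143) without G2. Tbx2 had 13308, 19773, 19248 and 18487 in the order A to G and a difference of -0.34 (limma adjusted p = 0.00740), which became -0.20 (adjusted p = 0.123) without A2.

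Tbx4 had 7001, 10620.4, 10014 and 7803 in A2, B2, C2 and G2, and its difference was -0.27 (limma adjusted p = 0.0105), or -0.17 (adjusted p = 0.149) without A2 and -0.21 (adjusted p = 0.0737) without G2. Tbx5 had 1501, 2087, 2246 and 1985, and its difference was -0.28 (limma adjusted p = 0.0114), or -0.14 (adjusted p = 0.179) without A2. With A2 left out, 0 of 10 factors were lower in number 2. The direction stayed negative for all 4.

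Nkx2-1, the defining factor of lung epithelium, was higher in number 2 by 0.26 (SE 0.088, limma adjusted p = 0.0354). That came from B2 and G2, which had 29644 and 32102, the highest values of the 24. A2 and C2 had 19739.5 and 20499.8, inside the range of the other samples, 17802 to 24918. Without B2 the limma adjusted p was 0.240, without G2 it was 0.250, and with A4 and B4 both left out it was 0.0651. Scaling to a common 75th percentile also ended this call (0.0707). Of 16 surfactant, secretory and other genes listed as known targets of NKX2-1 and FOXA factors, 6 were higher and 1 lower in number 2, the same counts with A2 left out. These genes also differed where Nkx2-1 was not called. In number 3, with Nkx2-1 at -0.07, 4 were higher and 1 lower. In number 6, with Nkx2-1 at -0.04, 0 were higher and 5 lower.

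In number 2, 13 of 14 capillary markers and 7 of 10 alveolar type 1 markers were lower, while 9 of 10 proliferation, 7 of 12 lymphocyte, 5 of 10 neutrophil, 4 of 10 macrophage and 4 of 10 alveolar type 2 markers were higher. Without A2 the counts were 9 of 14 capillary and 5 of 10 alveolar type 1 markers lower and 4 of 10 alveolar type 2 markers higher, and no neutrophil marker passed. The summed capillary markers ran from 254968 to 386674 in number 2 and from 365670 to 479560 in the other samples. Their part in the values of Foxf1, the T-box factors and Nkx2-1 was not tested.

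Number 3 had 3 factors lower, against a background of 2.09% of all genes and 3.45% of genes of mean 1000 or more called lower (2.89% of all genes higher). Foxf1 had 13904, 12098, 12051 and 14201 in A3, B3, C3 and G3, all below every sample of numbers 1, 4, 5 and 6 and overlapping number 2. Its difference was -0.47 (SE 0.13, limma adjusted p = 0.0320), the largest of any factor in any number. Tbx2 had 17633, 15903, 15543 and 21189.6, with G3 among the samples of numbers 4 and 5. Its difference was -0.34 (SE 0.087, limma adjusted p = 0.0235). Tbx5 had 1924, 1891, 1736 and 2022, a narrow group below numbers 1, 4, 5 and 6, with a difference of -0.32 (SE 0.077, limma adjusted p = 0.0180).

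Each of these 3 calls was lost when some single number 3 sample was left out. For Foxf1 that was B3, C3 or G3, for Tbx2 it was A3, B3 or C3, and for Tbx5 it was B3 or C3, with adjusted p up to 0.169. Foxp1 (-0.26, limma adjusted p = 0.0547) and Gata6 (-0.31, 0.0582) were just short of the threshold in number 3, and both passed without A2 (0.0141 and 0.0244). Macrophage markers were higher in number 3 for 3 of 10 genes, with sums of 50265 to 60596 against 31041 to 49187 in the other samples. Their mean log2 deviation, which weighs the genes equally, overlapped, at -0.07 to 0.26 against -0.30 to 1.09, and was highest in number 2. Further, 5 of 10 alveolar type 2 markers were higher. Of 14 capillary markers 4 were lower and 1 higher. Of these 3 lists, 1 macrophage marker was at 0 in at least 1 sample. Their part in these differences was not tested.

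Number 4 had 1 call. Foxp1, a forkhead repressor of lung epithelium that is also expressed in endothelium and lymphocytes, had 13875, 13348, 13800.0 and 11515 in A4, B4, C4 and G4. The first 3 were the highest of all samples, and G4 lay among the samples of numbers 1, 3 and 6. The difference was 0.27 (SE 0.076, limma adjusted p = 0.0422). The background was 2.72% of all genes called higher and 5.45% of genes of mean 1000 or more (2.02% of all genes lower). Leaving out a single sample ended this call for 14 of the 24 samples (adjusted p up to 0.216), namely A3, A4, A6, B1, B3, B4, B5, C1, C3, C4, C5, C6, G1 and G5. Scaling to a common 75th percentile also ended it (0.0568). Without A4 and B4 the difference was 0.19 (adjusted p = 0.677), and the genes called in number 4 fell from 1454 to 14.

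Foxa1 stood near the threshold in numbers 4 and 5. It had 3221, 3493, 2736 and 2726 in number 4 and 2989, 3123, 2762 and 3199 in number 5, while the samples of numbers 1, 2, 3 and 6 reached 2803. The differences were 0.25 (limma adjusted p = 0.0547) and 0.24 (0.0894). With A4 and B4 left out, number 4 was at an adjusted p of 0.824, and number 5 passed at 0.27 (adjusted p = 0.0440). Ciliated cell markers were higher in number 4 for 5 of 10 genes, and with A4 and B4 left out for 0 of 10 in number 4 and 5 of 10 in number 5. The part of these markers in the Foxa1 values was not tested.

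Gata6, the zinc finger factor of distal lung epithelium that is also active in smooth muscle and heart, had its highest mean in number 4, 6179.6 ± 552 (SD, n = 4), and its lowest in number 3, 4494 ± 567. It passed the F test over numbers, and no single number passed for it. Number 5 had no factor called, with a background of 0.880% of all genes higher and 1.09% lower (1.55% and 2.20% of genes of mean 1000 or more). In number 6, Tbx2 alone passed, higher by 0.35 (SE 0.087, limma adjusted p = 0.0169), against 4.11% of all genes and 7.38% of genes of mean 1000 or more called higher (4.02% of all genes lower). Its samples had 25800.3, 25027, 23489.5 and 30035, which overlapped numbers 1 and 4, and the call was lost without A6, B6 or G6 (adjusted p up to 0.0857). Capillary markers were higher in number 6 for 7 of 14 genes and lymphocyte markers for 9 of 12. Smooth muscle markers were lower for 4 of 9 genes, and of 14 fibroblast markers 1 was higher and 3 lower. Their part in the Tbx2 value was not tested.

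The order of the numbers can be read factor by factor. Tbx5 rose in mean from number 3 (1893 ± 118) through numbers 2 (1955 ± 321), 4 (2278 ± 177), 5 (2323 ± 135) and 6 (2561 ± 220.3) to number 1 (2811 ± 161; SD, n = 4 each). Tbx2 ran from number 3 (17567 ± 2581) to number 6 (26088 ± 2801), with number 1 at 25352 ± 1149. Of 50 pairs of neighbouring number means over the 10 factors, 3 had ranges that did not overlap. They were Foxa1 from number 6 to 5 (2545 to 3018), Foxp1 from number 5 to 6 (10503 to 11899.9) and Tbx4 from number 6 to 1 (10934 to 12875). The share of such pairs over all genes was not computed, so this count is a description only.

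The factors were next compared with each other across the 24 samples (Pearson's r and Spearman's rho of log2 values, permutation tests with 100000 resamples, adjusted over 45 pairs). Of these pairs 14 passed, all positive, and 6 passed on deviations from the number means. The share among pairs of other genes was not computed, so these counts are a description only. Many genes differed among numbers, so the value within numbers is given beside each r. Foxf1 and the 3 T-box factors formed the strongest group.

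Tbx2 and Tbx5 had r = 0.89 and rho = 0.88 (adjusted permutation p = 9e-05 for r, from 1e-05, the smallest that the permutations can give), r = 0.85 without the 2 extreme samples and r = 0.71 within numbers (adjusted permutation p = 0.0426). Foxf1 and Tbx2 had r = 0.86, rho = 0.77, r = 0.77 without the extreme samples and r = 0.81 within numbers (adjusted permutation p = 0.00765). Tbx4 and Tbx5 had r = 0.86, rho = 0.84, and 0.81 and 0.69 in the same order (adjusted permutation p = 0.0426 within numbers). The neighbouring genes Tbx2 and Tbx4 had r = 0.80, rho = 0.81, and 0.73 and 0.71 (0.0087 within numbers). Foxf1 and Tbx4 had r = 0.71 and, within numbers, r = 0.80 (0.00765). The r of Foxf1 and Tbx5, 0.78, became 0.62 within numbers and did not pass there (adjusted permutation p = 0.111).

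Foxp1 and Gata6 were also related to Foxf1 and Tbx2. Foxp1 had r = 0.70 with Tbx2, 0.66 with Foxf1 and 0.64 with Tbx5, and Gata6 had r = 0.69 with Foxf1 and 0.63 with Tbx2 (adjusted permutation p from 0.000771 to 0.00416). None of these 5 passed within numbers, where r ran from 0.34 to 0.61. Without A2 and B3, the r of these 5 pairs ran from 0.46 to 0.56. Foxp1 and Gata6 had r = 0.72 (adjusted permutation p = 0.00075) and 0.65 within numbers (0.0426), the only pair outside the group of Foxf1 and the T-box factors to pass both ways. Gata6 also passed with Foxa2 (r = 0.56, adjusted permutation p = 0.0158) and Foxa1 (r = 0.54, 0.0224). The paralogs Foxa1 and Foxa2 had r = 0.35 (0.221). Nkx2-1 passed with no other factor, and its r with Tbx4 was -0.30 (0.296).

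**Figure D4:**
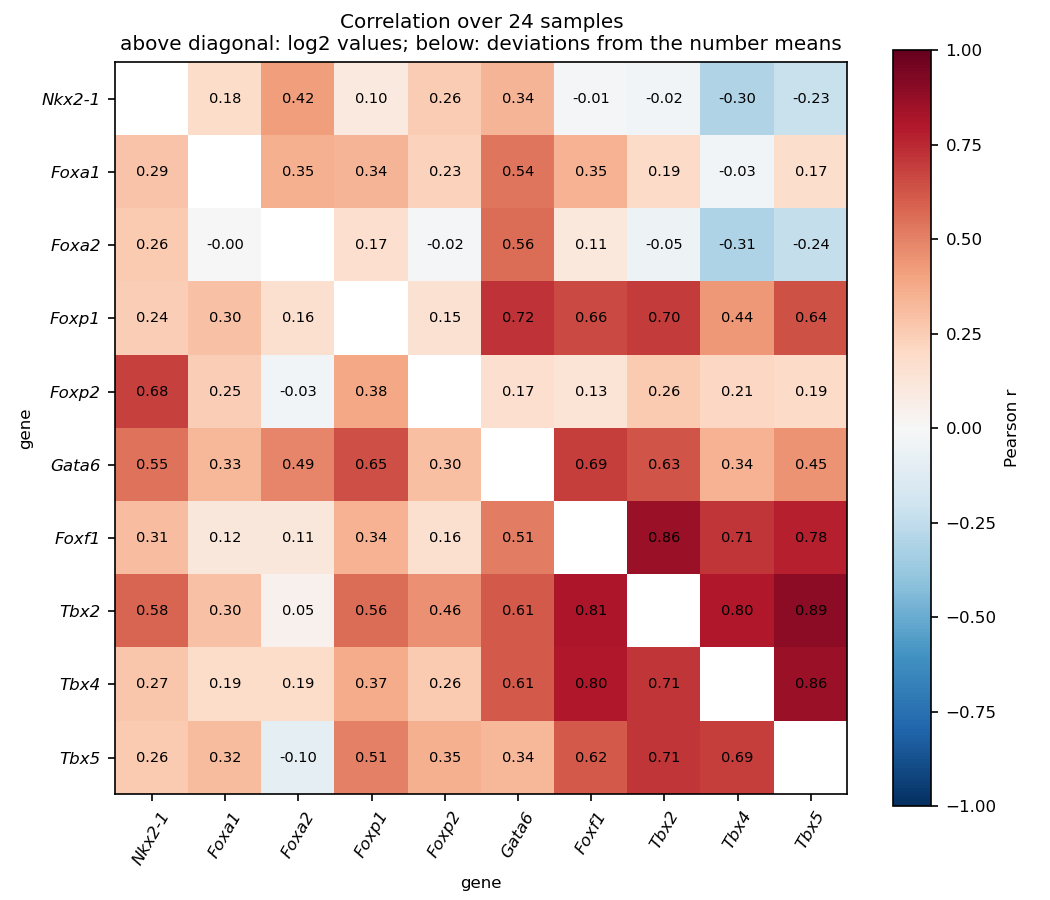
Pearson's r between log2 values of the 10 factors over 24 samples, on the values themselves and on deviations from the number means; the colour scale runs from -1 to 1. Foxf1, Tbx2, Tbx4 and Tbx5 form a block of positive values, from 0.71 to 0.89 on the values themselves.

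Each factor was also set against the mean log2 deviation of 15 lists of cell type markers. Of the 150 relations 23 passed, and 6 passed within numbers. The share for other genes was not computed here either. Foxa1 followed the ciliated cell markers, with r = 0.81 (rho = 0.70, adjusted permutation p = 0.000429), r = 0.73 without A4 and B4, and r = 0.50 within numbers, which did not pass (0.146). Foxf1 followed the capillary markers with r = 0.80 (rho = 0.78, adjusted permutation p = 0.000429), r = 0.65 without A2 and G6, and r = 0.81 within numbers (0.0330). It also followed the alveolar type 1 markers, with r = 0.69, 0.47 without A2 and G6, and 0.72 within numbers (0.0330).

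The T-box factors had similar relations. With the capillary markers, r was 0.79 for Tbx2, 0.74 for Tbx4 and 0.76 for Tbx5 (adjusted permutation p at most 0.0005). None of these passed within numbers (adjusted permutation p from 0.0533 to 0.161). With the macrophage markers, r was -0.71 for Foxf1 and -0.74 for Tbx2 and for Tbx4 (adjusted permutation p at most 0.00218). Within numbers these did not pass either (from 0.0533 to 0.248). Tbx4 had r = 0.78 with the alveolar type 1 markers (adjusted permutation p = 0.000429), 0.64 without A2 and G2, and 0.64 within numbers (0.0821). Tbx5 had r = -0.76 with the macrophage markers (0.000429), -0.62 without A2 and C1, and -0.72 within numbers (0.146). With the fibroblast markers, Tbx5 had r = 0.65 (0.00703), 0.54 without A2 and C1, and 0.74 within numbers (0.0364). Nkx2-1 and the alveolar type 2 markers had r = 0.52, which did not pass (adjusted permutation p = 0.0567) and became 0.11 without B2 and G2. Tbx5 and Gata6, both active in heart, had r = 0.28 (0.378) and 0.02 (0.976) with the cardiac muscle markers.

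**Figure D5:**
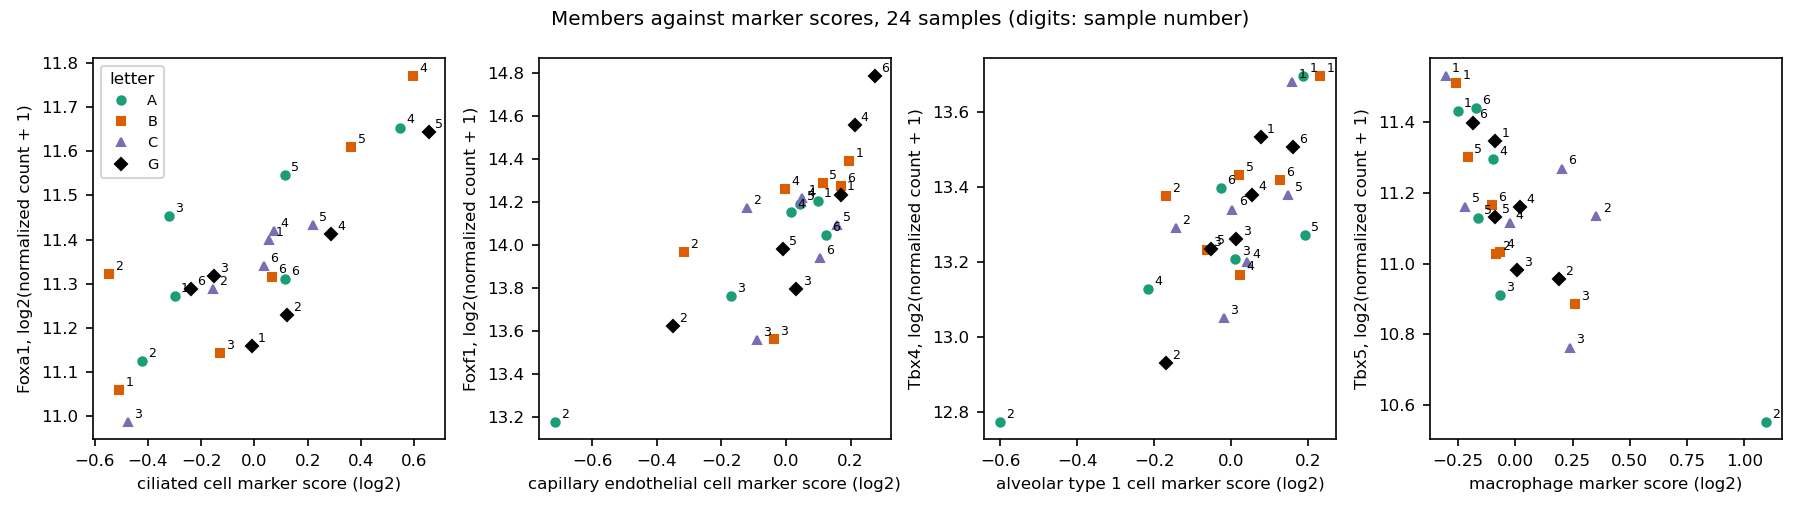
Log2 values of 4 factors (vertical axes) against the mean log2 deviation of a marker list (horizontal axes), with 1 point per sample. Foxa1 is set against ciliated cell markers (r = 0.81), Foxf1 against capillary (0.80), Tbx4 against alveolar type 1 (0.78) and Tbx5 against macrophage markers (-0.76). The capillary, alveolar type 1 and macrophage relations were shared by Foxf1, Tbx2, Tbx4 and Tbx5.

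Other genes of the same pathways were counted from lists, each of them with 0 genes called among letters; the smallest unadjusted p over letters were those of Cebpd (0.00554), Mycn (0.0137) and Gata2 (0.0164). The F test over numbers called 31.5% of all genes and 58.3% of genes of mean 1000 or more. Shares for single numbers were given with each number above, and no list was tested against them. Some listed genes, such as Gli1 (mean of 349), lie below 1000. Of 28 mesenchymal transcription factors, 22 passed the F test over numbers, with 10 higher and 0 lower in number 1, 1 and 12 in number 2 (1 and 4 without A2), 0 and 13 in number 3 and 8 and 0 in number 6. Gli1, the effector of Hedgehog signalling, was higher in numbers 1 and 2, by 1.22 and 0.41, and differed by -0.83 in number 3 and -0.40 in number 4. With A4 and B4 left out, no gene of this list passed in number 4. Meis1 differed by 0.25, -0.39, -0.42 and 0.39 in numbers 1, 2, 3 and 6, and Hoxa2 by 0.30, -0.43, -0.45 and 0.49.

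Among 25 signalling genes 21 passed over numbers, beside the same shares of 31.5% and 58.3%, which also apply to the lists below. In number 1, 6 were higher and 0 lower, and in number 2 the counts were 0 and 10 (0 and 5 without A2). They were 2 and 8 in number 3 and 6 and 0 in number 6. Shh, the epithelial ligand upstream of Foxf1, differed by -0.38, -0.79, 0.61 and 0.58 in numbers 2, 3, 5 and 6, and Wnt5a by 0.85 in number 1 and -0.31 in number 3. Fgfr2, the epithelial receptor for FGF10, differed by -0.47, 0.26 and 0.29 in numbers 4, 5 and 6. Of 33 epithelial transcription factors 23 passed, 5 higher and 5 lower in number 1. Creb3l1 differed by 0.55, 0.54, -0.46 and -0.41 in numbers 1, 2, 3 and 6. Foxm1, a factor of dividing cells, differed by 0.40, 0.85 and -0.46 in numbers 1, 2 and 4, and Nr2f2 by -0.25, -0.39 and 0.28 in numbers 2, 3 and 6. Of 16 paralogs of the 10 factors 8 passed. Tbx3, the closest relative of Tbx2 and the RefSeq neighbour of Tbx5, differed by 0.25, -0.27 and -0.34 in numbers 1, 2 and 3, the lymphocyte factor Tbx21 by 0.57, -0.55 and 0.92 in numbers 2, 3 and 6, and Gata3, also a lymphocyte factor, by 0.86 in number 6. Of the 16 target genes 12 passed. Muc1 differed by 0.82, -0.33 and -0.47 in numbers 2, 5 and 6. Sftpa1 differed by 0.51, 0.32 and -0.39 in numbers 2, 3 and 6. Scgb1a1, the club cell secretoglobin, differed by -0.47 in number 2 and 0.40 in number 4. With A4 and B4 left out, no gene of the signalling, epithelial, paralog and target lists passed in number 4. Without A2, the epithelial factors lower in number 2 went from 7 to 3 and the paralogs from 2 to 1.

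The genes most like each factor over the 24 samples were taken from 13626 genes with a mean of at least 100, as a description only. For Foxf1 they were Itpkb (r = 0.91), Tbx3 (0.90) and Dlc1 (0.89). For Tbx2 and Tbx5, the endothelial carbonic anhydrase gene Car4 (0.91 with each) and Mtss2 (0.90 with each) were shared, with St5 for Tbx2 (0.88) and Fgfr4 for Tbx5 (0.90). For Tbx4 they were Gucy1b1, Mamdc2 and Klhl13 (0.92 each). Gata6 was most like Nedd9 (0.90), Kctd5 and Sh3bp4, Foxa1 most like Rassf10 (0.89), Lratd1 and Klhdc7a, and Foxp1 most like Traf5 (0.88), Thsd1 and Il15. The genes most like Foxp2 included Klhl24 (0.86) and Myo5c (0.85). Nkx2-1 was most like Gfra3, Slc26a11 and Spint1 (0.83 each), and Foxa2 most like Polr2e and Rpl23a (0.81 each) and Rfxap. The number of genes with r above 0.8 ran from 2 for Foxa2 and 3 for Nkx2-1 to 102 for Tbx5 and 174 for Tbx4.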

How the data were processed

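Lung mRNA from 24 samples was measured by sequencing. The authors deposited a table of normalised read counts per gene (a signal that is not in whole numbers); STAR and build GRCm38 are named per the submitters' processing notes, and the counting, annotation and normalisation are not given in the sources used here. Differences were tested on log2(value + 1) by limma 3.58.1 with trend (R 4.3.3), keeping every gene whose mean reached 0.5 (all 30667), in a letter fit and in a fit with letter and number; adjusted p-values cover all genes, at 0.05. Fitting was tested on simulated data. Trimmed-mean scaling factors were computed in R, and correlations in Python 3.11.15. Alternatives were other scalings, pseudocount 0.1, other filters, sample weights, a replicate block and leaving out samples. The labels do not say that equal numbers share an animal. Same-numbered samples deviated together, at r above 0.1, in all 6 pairs for B and A (r = 0.17 to 0.59) and for C and B (0.13 to 0.60). By that measure same-numbered samples of these letters went together, and what they share is not given.

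The 10 factors and all lists were chosen with earlier results of these data known. Named genes were the 10 factors, the 3 genes most like each, and from each pathway list the 3 with the smallest p over numbers and, where used, the 2 over letters. Of these, 1 gene is not reported here. Promoters are from a RefSeq table (GRCr8) that held 6 of the 10 factors. A log2 fold on this scale slightly understates changes of low genes.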

Additional observations from a re-analysis of the deposited data

Results flagged for a closer look

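Within the letters, each of 6 samples, 2 of 40 sets of factor values held a sample far from the other 5, and chance alone gives about 1 in 20. Nkx2-1 in letter B was 29644 in B2, and the nearest other value was 22840.4. Foxa1 in letter C was 2029.8 in C3, below the next value of 2498.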

How the results depend on the processing

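Among letters the count of factors called was 0 in every fit run, including 24 that left out a sample and the replicate block, in which the lowest adjusted p of a factor was 0.221 (limma; Foxp2, G against A). For C with A and G with B, r was above 0.1 in 5 of the 6 same-numbered pairs, with lowest values of 0.07 and 0.09. For G with A and G with C it was so in 4 of the 6, with lowest values of -0.05 and 0.03. The block changed no factor's call for any pair of letters. Over all genes the block moved the count called among letters from 2 to 12, in G against A from 2 to 391 and in G against C from 2 to 11; sample weights moved G against B from 1 to 3. Among numbers, 7 to 9 factors passed over 24 fits that left out a sample and 7 to 9 over 10 other settings, and the count of calls for single numbers, 14, ran from 10 to 16 and from 12 to 17. The 14 relations between factors fell to 6, and the 23 with marker lists to 6, on deviations from the number means. There, Gata6 and the club cell markers had r = -0.64, against 0.000467 over all values; the cause was not tested. Genes called per number ranged over these settings from 1917 to 5373 (number 1), 3542 to 7111 (2), 543 to 2131 (3), 14 to 1976 (4), 2 to 1814 (5) and 747 to 4097 (6). No difference of a factor that had passed changed direction. Depth is unknown, so counting error could not be given.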
